A study of Mus musculus with 4 samples.

Results

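Accessible chromatin was examined in mouse mammary epithelial EpRas cells at the loci of 10 genes that encode TGF-β ligands, TGF-β and BMP receptors, and a protein of the latent TGF-β complex. The genes were *Tgfb1*, *Tgfb2*, *Tgfb3*, *Ltbp1*, *Tgfbr1*, *Tgfbr2*, *Tgfbr3*, *Acvr1*, *Bmpr1a* and *Bmpr2*, taken from 21938 protein-coding genes. The locus of a gene was its GENCODE gene body in mm10 with the 50 kb upstream of its transcription start site (TSS). Every FAIRE-positive peak that touched such a locus was taken, and peaks of different libraries that overlapped by at least 1 bp were merged into a region. The 10 loci cover 1733 kb and held 48 of the 35796 regions of the 4 libraries.

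TGF-β1, TGF-β2 and TGF-β3 are secreted dimers that leave the cell bound to their own propeptide, and LTBP1 ties this latent complex to the extracellular matrix. The released ligand binds the type II receptor TGFBR2, which phosphorylates the type I receptor TGFBR1, and TGFBR1 in turn phosphorylates Smad proteins that act with other factors on chromatin. BMPs signal in the same way through type II receptors such as BMPR2 and type I receptors such as BMPR1A and ACVR1, while TGFBR3 (betaglycan) is a coreceptor that presents ligand. In mammary epithelium TGF-β restrains growth and, together with active Ras, drives epithelial cells towards a mesenchymal, invasive state.

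FAIRE-seq sequences the DNA that remains free of crosslinked protein after phenol extraction and therefore marks open chromatin. All 4 libraries came from EpRas, a mammary gland epithelial line that expresses active H-Ras, and were made at day 4. Cells received control siRNA (siControl) and no TGF-β, control siRNA with TGF-β at 1 ng/ml, or TGF-β with set 1 or set 2 of siRNAs against the ETS factor genes *Etv4* and *Etv5*. The protocol names TGF-beta3 as the ligand given, the product of one of the 10 genes. Each group was a single peak list of a single cell line, so no spread between replicates could be measured and no p-value is given. The intervals below are 95% Poisson or Clopper-Pearson intervals and cover counting error only.

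In the order siControl, siControl with TGF-β, set 1 and set 2, the lists held 22247, 28754, 22516 and 14925 peaks at an estimated depth of 15.3, 16.3, 17.3 and 20.7 M reads. The deepest library thus had the shortest list. The weakest peak of a list held 10 to 12 fragments at its summit. Promoters of the epithelial markers were called in at least 1 library for 8 of 8 genes, *Cdh1*, *Epcam* and *Krt8* among them. The separate lists, in the order given above, held only 6, 6, 4 and 2 of these 8, and *Krt8* alone was in all 4. Pooled in the same way, 0 of 5 blood markers, 1 of 4 endothelial markers (*Pecam1*) and 2 of 6 fibroblast markers (*Col1a1* and *Pdgfra*) were called. Of all protein-coding genes, 42.6% had a promoter peak in at least 1 library. Open chromatin was averaged over the culture, so fewer cells with an open site and a less open site in each cell cannot be told apart.

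Peaks in the 10 loci numbered 26 in siControl cells, 38 upon TGF-β, 27 under set 1 and 17 under set 2. They made up 0.117%, 0.132%, 0.120% and 0.114% of the lists, so the loci held a similar share of each list. Of the 48 regions, 24 were intronic, 8 were upstream, 6 lay within 2 kb of a TSS of the gene itself, 9 lay within 2 kb of a TSS of a neighbouring gene, and 1 was exonic. *Ltbp1* held 14 regions and *Acvr1* 8, while *Tgfb2*, *Tgfb3*, *Bmpr1a* and *Bmpr2* held 2 each. The loci had a median of 2.99 regions per 100 kb, against 1.97 over the loci of all protein-coding genes.

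**Figure D1:**
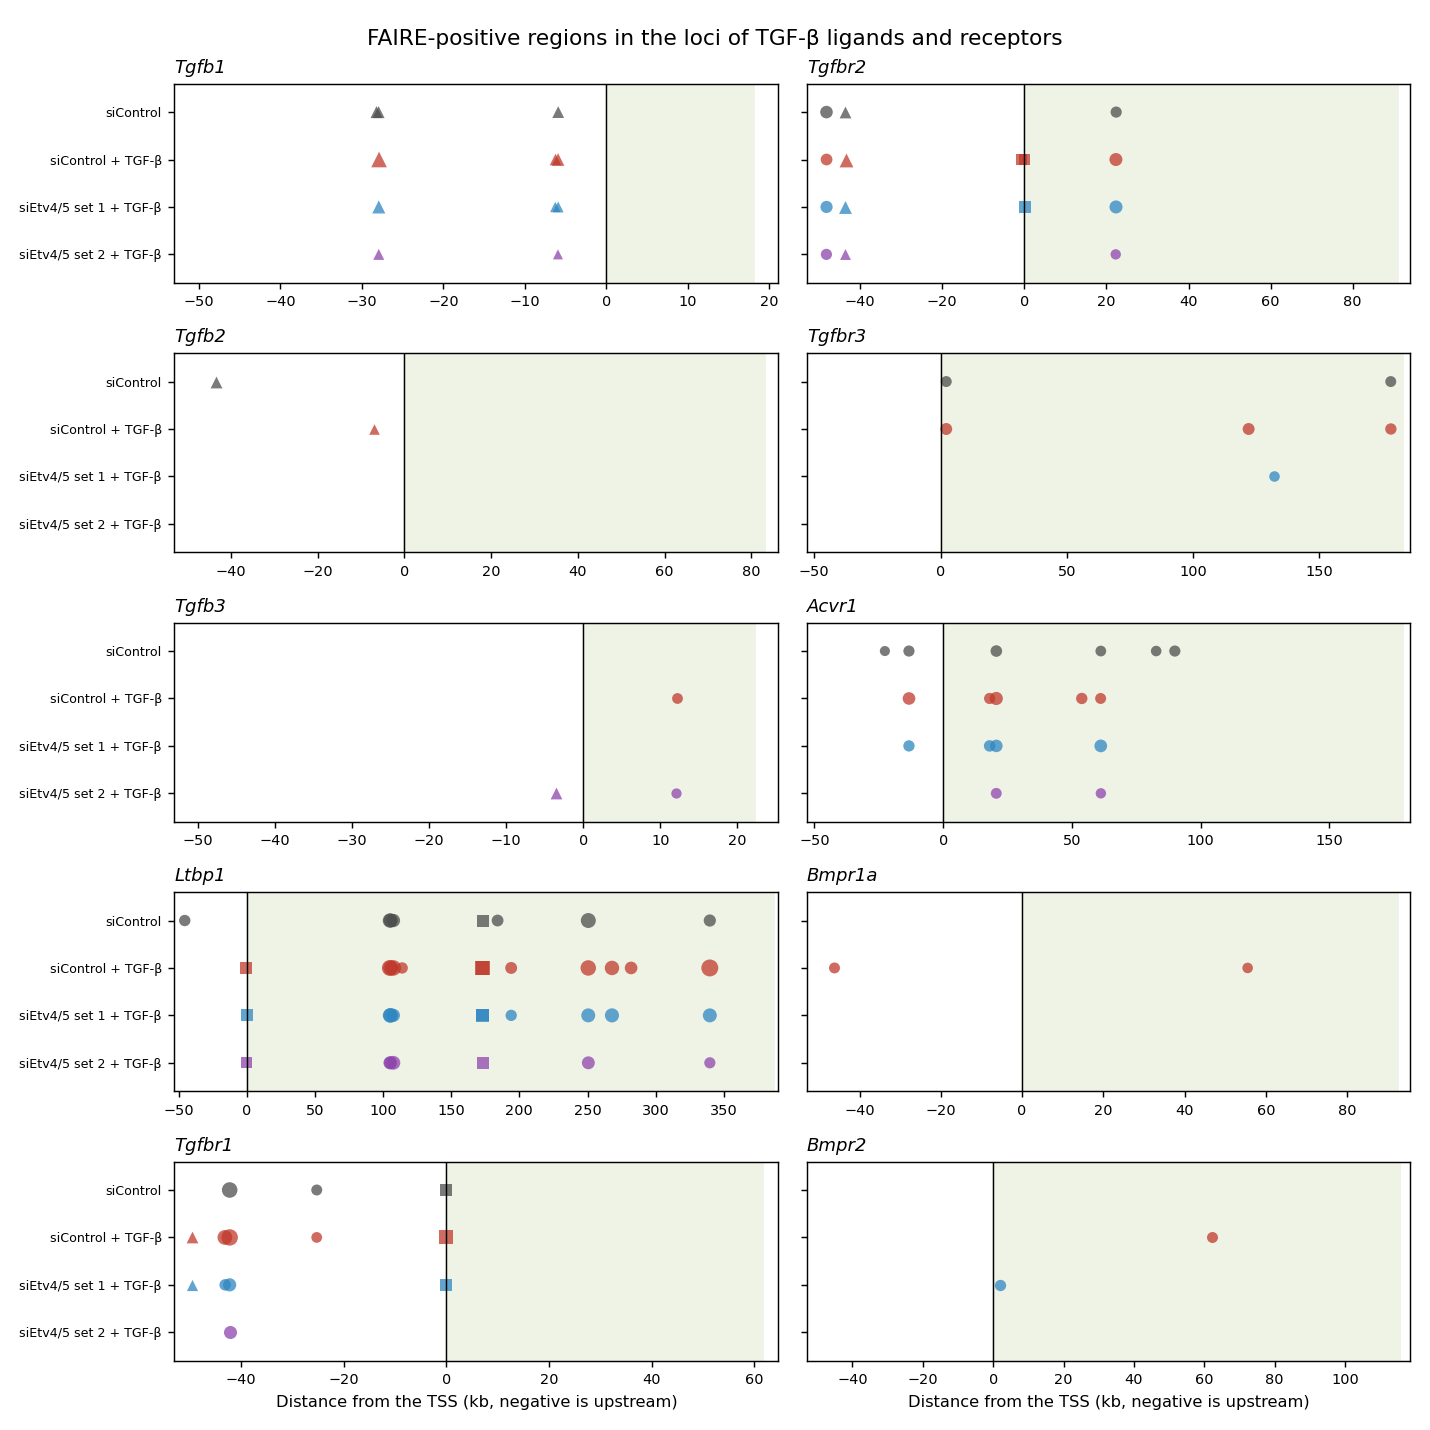
FAIRE-positive peaks in the 10 loci, by distance from the TSS in kb (horizontal axis, negative upstream) and library (rows); the shaded area is the gene body, squares are own promoters, triangles promoters of neighbours and circles other positions, and larger symbols hold more fragments scaled to depth. *Ltbp1* carried peaks in every library, with none between its first promoter and 105 kb, while *Bmpr1a* and *Bmpr2* had 2 regions each, every one of them in a single library.

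**Figure D2:**
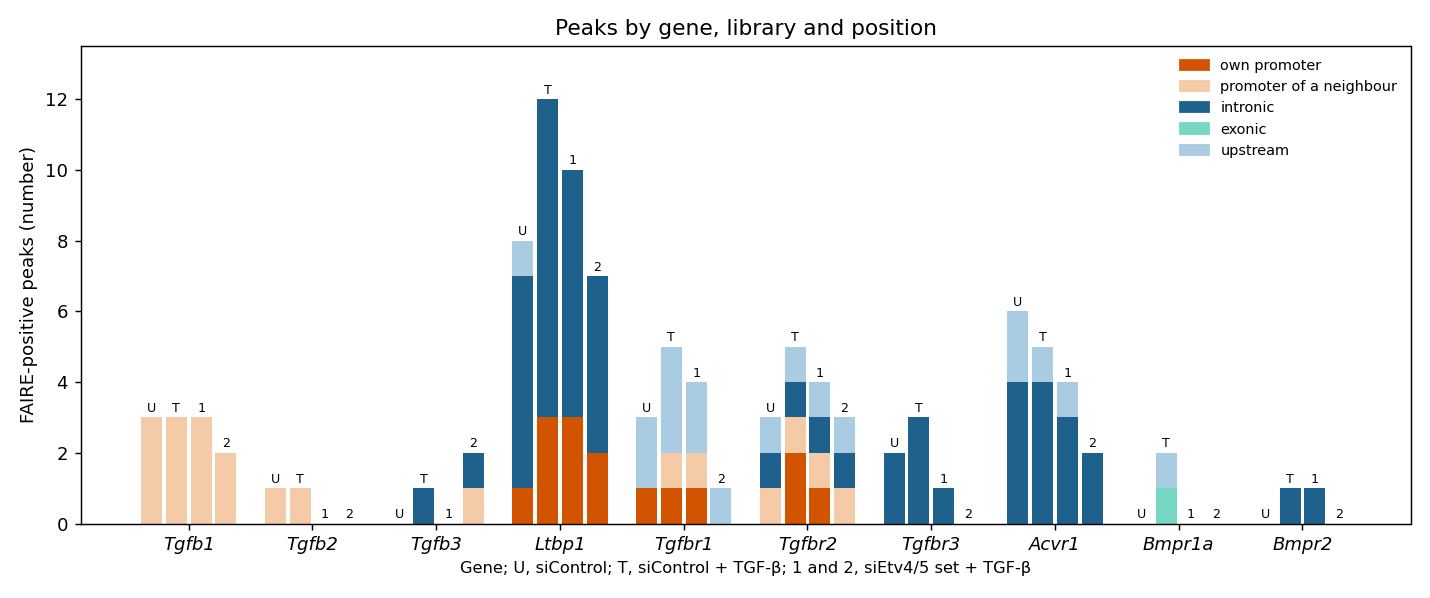
Number of peaks per gene (vertical axis) in siControl (U), siControl with TGF-β (T), set 1 (1) and set 2 (2), stacked by position. *Ltbp1* had 8, 12, 10 and 7 peaks in this order, and own promoters were marked in *Ltbp1*, *Tgfbr1* and *Tgfbr2*.

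Own promoters were called in a minority of the genes, as they were over all protein-coding genes. A peak lay within 2 kb of a TSS of the gene in 2 of 10 genes in siControl cells (*Ltbp1* and *Tgfbr1*), in 3 upon TGF-β and equally under set 1 (*Ltbp1*, *Tgfbr1* and *Tgfbr2*) and in 1 with set 2 (*Ltbp1*). Over all protein-coding genes the shares were 36.1%, 38.1%, 34.1% and 27.3%. The promoters of *Tgfb1*, *Tgfb2*, *Tgfb3*, *Tgfbr3*, *Acvr1*, *Bmpr1a* and *Bmpr2* had no peak in any library, and 42.6% of all genes had one in at least 1. *Ltbp1* was the gene called in all 4, as were 23.6% of all genes. These 7 promoters were not all poor in G and C: the 500 bp around the TSS held 76.6% G and C in *Tgfb1*, 79.8% in *Acvr1*, 71.5% in *Bmpr2* and 67.5% in *Tgfbr3*, all in the highest band when genes were split into 4 equal bands by this content, where 58.6% had a peak in at least 1 library. *Tgfb2*, *Tgfb3* and *Bmpr1a*, with 54.1%, 49.3% and 55.7%, fell in the second lowest band, where 36.7% of genes had one.

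The sequences of the open promoters are shown because their base composition and motif letters can be set beside the calls. Each gives the 200 bases 5′ of a TSS in mm10, read in the direction of transcription, with motif letters in capitals. The motifs searched on both strands were AP-1 (TGANTCA), ETS (CCGGAA), PEA3-type ETS (AGGAAG), RUNX (TGTGGT) and Smad (CAGACA). No motif overlapped another in the sequences shown here. The study matched the motif of its Etv4-bound regions to that of ELK4, another ETS factor. Neither ETS form is therefore read here as particular to ETV4 and ETV5.
*Ltbp1*, first TSS, chr17:75005368-75005567, plus strand: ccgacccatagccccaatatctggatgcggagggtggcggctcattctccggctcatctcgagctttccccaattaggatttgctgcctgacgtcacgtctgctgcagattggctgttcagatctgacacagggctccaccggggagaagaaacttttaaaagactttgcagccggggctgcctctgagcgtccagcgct
*Ltbp1*, internal TSS, chr17:75178610-75178809, plus strand: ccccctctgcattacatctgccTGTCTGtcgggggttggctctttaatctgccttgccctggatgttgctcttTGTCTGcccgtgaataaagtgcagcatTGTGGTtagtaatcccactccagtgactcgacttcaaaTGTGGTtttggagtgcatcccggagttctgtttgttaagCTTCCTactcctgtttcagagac
*Tgfbr1*, chr4:47353022-47353221, plus strand: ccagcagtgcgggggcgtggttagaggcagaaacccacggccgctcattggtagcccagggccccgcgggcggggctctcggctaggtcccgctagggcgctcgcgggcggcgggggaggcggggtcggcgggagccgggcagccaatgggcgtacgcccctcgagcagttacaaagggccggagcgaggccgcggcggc
*Tgfbr2*, chr9:116175361-116175560, minus strand: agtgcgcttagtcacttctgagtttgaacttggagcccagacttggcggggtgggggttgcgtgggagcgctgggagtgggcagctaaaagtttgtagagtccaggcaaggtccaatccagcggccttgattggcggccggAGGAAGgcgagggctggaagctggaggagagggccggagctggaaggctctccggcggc

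The *Tgfbr1* sequence shown held none of the 5 motifs, and the *Tgfbr2* sequence held the PEA3-type letters once. Most of this *Tgfbr2* window lies upstream of the called region at the TSS, chr9:116175199-116175403. Over 500 bp around the middle of that region, both AP-1 and PEA3-type letters were present. The called *Tgfbr1* promoter region held PEA3-type letters over the same width. Windows that overlap an exon are not shown, among them that of a second *Tgfbr2* TSS with AP-1 and PEA3-type letters and that of a second *Tgfbr1* TSS with PEA3-type letters. Windows of further *Tgfbr1* TSSs that overlap no exon are also not shown. A TSS 0.494 kb from the called promoter region had no motif letters in its window, and another at 33.1 kb had PEA3-type letters. The internal *Ltbp1* promoter held the Smad letters at 2 places, the RUNX letters at 2 and the PEA3-type letters at 1, whereas the 200 bases before the first *Ltbp1* TSS held none of the motifs. This contrast depends on the window. Over 500 bp around their middles, the called regions at -0.533 kb and -0.111 kb of the first promoter both held ETS and Smad letters. The one at -0.533 kb also held PEA3-type and RUNX letters.

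Sequences around the summits of intronic regions that overlap no exon are shown for the strongest region, in fragments scaled to depth, of 4 patterns of calls, together with 2 that held both AP-1 and PEA3-type letters. Each gives the plus strand of mm10 with the summit at base 101 and the same motifs in capitals. AP-1 letters read the same on both strands.
*Ltbp1* at 340 kb, called in all 4 libraries, chr17:75345192-75345391: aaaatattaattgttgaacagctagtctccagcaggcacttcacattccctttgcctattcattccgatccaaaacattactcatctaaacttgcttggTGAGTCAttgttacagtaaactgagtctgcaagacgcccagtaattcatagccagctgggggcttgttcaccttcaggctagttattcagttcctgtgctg
*Ltbp1* at 282 kb, called with TGF-β alone, chr17:75287425-75287624: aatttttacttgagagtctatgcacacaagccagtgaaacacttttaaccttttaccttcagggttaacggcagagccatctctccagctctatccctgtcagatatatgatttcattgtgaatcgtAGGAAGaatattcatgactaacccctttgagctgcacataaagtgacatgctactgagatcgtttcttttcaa
*Ltbp1* at 184 kb, called in siControl cells alone, chr17:75189551-75189750: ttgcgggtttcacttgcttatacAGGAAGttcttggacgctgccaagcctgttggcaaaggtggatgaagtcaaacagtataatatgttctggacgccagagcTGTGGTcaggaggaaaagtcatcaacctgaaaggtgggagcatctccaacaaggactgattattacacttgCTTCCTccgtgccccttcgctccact
*Tgfbr3* at 2.24 kb, called in both siControl libraries alone, chr5:107287284-107287483: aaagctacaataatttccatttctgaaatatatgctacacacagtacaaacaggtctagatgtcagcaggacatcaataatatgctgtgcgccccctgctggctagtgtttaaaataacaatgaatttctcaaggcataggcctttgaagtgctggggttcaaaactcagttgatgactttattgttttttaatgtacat
*Tgfbr3* at 178 kb, called in both siControl libraries alone, chr5:107111240-107111439: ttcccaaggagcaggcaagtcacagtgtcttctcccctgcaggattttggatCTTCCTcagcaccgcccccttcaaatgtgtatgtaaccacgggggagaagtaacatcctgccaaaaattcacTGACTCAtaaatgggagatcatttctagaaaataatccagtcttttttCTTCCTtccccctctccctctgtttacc
*Tgfb3* at 12.1 kb, called with TGF-β and with set 2, chr12:86066805-86067004: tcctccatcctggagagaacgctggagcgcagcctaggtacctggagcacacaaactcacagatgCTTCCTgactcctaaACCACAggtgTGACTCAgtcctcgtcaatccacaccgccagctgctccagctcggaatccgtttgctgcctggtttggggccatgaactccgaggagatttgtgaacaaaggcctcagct

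In the *Ltbp1* region at 340 kb the AP-1 letters lay at bases 100 to 106, across the summit itself. In the *Tgfb3* region they lay at bases 91 to 97, and in the *Tgfbr3* region at 178 kb at bases 125 to 131, while the 200 bases shown of the *Tgfbr3* region at 2.24 kb held none of the 5 motifs. Those of the *Ltbp1* region at 282 kb held the PEA3-type letters at bases 128 to 133 and no other motif. Over 500 bp, the *Tgfbr3* region at 2.24 kb also held ETS letters and the *Ltbp1* region RUNX letters.

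Among the ligand genes, *Tgfb1* was the one with regions called in all 4 libraries, and all 4 of its regions lay at promoters of neighbouring genes. The region at -27.9 kb (chr7:25658912-25659255), which overlaps exons of both *Bckdha* and *Exosc5*, held 21 fragments at its summit in siControl cells, 45 upon TGF-β, 30 under set 1 and 22 under set 2. Scaled to depth as FPM, the fragments at a summit per 1000000 reads, these were 1.37 (interval 0.851 to 2.1), 2.77 (2.02 to 3.70), 1.74 (1.17 to 2.48) and 1.06 (0.667 to 1.61). The TGF-β library was the highest, and its interval lay above that of set 2 and overlapped those of siControl cells and set 1. Its fold enrichment over the local background was 8.63, 17.8, 11.1 and 8.68 in the same order.

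The *Tgfb1* region at -5.93 kb, at the *B9d2* promoter, held 20, 26, 18 and 16 fragments in the order siControl, TGF-β, set 1 and set 2. A region beside it at -6.26 kb was called with TGF-β (20 fragments) and set 1 (15) alone, and 1 at -28.2 kb, at the *Bckdha* promoter, in siControl cells alone (21). No region was called inside the *Tgfb1* gene.

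*Tgfb2* and *Tgfb3* had few regions. *Tgfb2* had a region at -43.4 kb, at the *Rrp15* promoter, in siControl cells alone (20 fragments) and 1 at -7.02 kb, at a promoter of *Gm37849*, with TGF-β alone (15 fragments), and none with either siRNA set. *Tgfb3* had an intronic region at 12.1 kb with TGF-β (16 fragments) and set 2 (17 fragments), and a region at the *Ift43* promoter, at -3.50 kb, with set 2 alone (27 fragments). Neither gene had a region that was called in siControl cells and in any TGF-β library.

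*Ltbp1*, whose product anchors latent TGF-β in the matrix, had the most regions, with 6 of its 14 regions called in all 4 libraries. The intronic region at 340 kb (chr17:75345139-75345448) held 22 fragments in siControl cells, 55 upon TGF-β, 36 under set 1 and 23 under set 2. In FPM these were 1.44 (0.902 to 2.18), 3.38 (2.55 to 4.40), 2.08 (1.46 to 2.88) and 1.11 (0.706 to 1.67), so the interval of the TGF-β library lay above those of siControl cells and set 2 and overlapped that of set 1. The fold enrichment was 7.16, 15.1, 9.87 and 6.40. Of the 48 regions, this one held the most fragments in any library.

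The intronic *Ltbp1* region at 268 kb (chr17:75273396-75273657) had 37 fragments with TGF-β and 37 with set 1, and no peak in siControl cells or with set 2. At the local background estimated for them, 17 fragments in siControl cells and 20 with set 2 would have reached the p-value limit. The deposited lists give no value for a site without a peak, and a peak must also be at least as wide as a fragment, so these numbers are no strict upper limits. The region at 194 kb showed the same pattern with 22 and 20 fragments.

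A cluster of 3 intronic *Ltbp1* regions between 105 and 108 kb was called in every library. Their summits held 34, 48, 38 and 35 fragments at 105 kb, then 32, 37, 41 and 35 at 106 kb, and 28, 45, 31 and 42 at 108 kb, in the order siControl, TGF-β, set 1 and set 2. In FPM, the TGF-β library was above siControl cells and set 2 in all 3. The ratio of set 2 to siControl cells with TGF-β was 0.574 at 105 kb (interval 0.361 to 0.906), 0.745 at 106 kb (0.456 to 1.22) and 0.735 at 108 kb (0.471 to 1.15), and the interval lay below 1 at the first. The region at 250.6 kb held 38, 44, 36 and 35 fragments, or 2.49, 2.70, 2.08 and 1.69 in FPM, with a ratio of 0.626 for set 2 (0.390 to 0.9992).

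Both *Ltbp1* promoters carried peaks. The internal promoter, which starts the shorter transcripts at 173 kb, was called in all 4 libraries, with 24, 35, 32 and 29 fragments at the strongest summit, and was split into 2 peaks with TGF-β and with set 1. At the first promoter, the TGF-β library had a peak at -0.533 kb (21 fragments), and the set 1 and set 2 libraries had one nearer to the TSS, at -0.111 kb (24 and 21 fragments). These peaks did not overlap, and siControl cells had neither. Single-library regions lay at 114 kb (19 fragments) and 282 kb (26) with TGF-β, and at 184 kb (20) and -45.5 kb (18) in siControl cells.

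Among the type I receptor genes, *Tgfbr1*, the kinase that phosphorylates Smads upon TGF-β, was the one with a called own promoter. Its promoter peak at -0.106 kb (chr4:47352964-47353268) held 24 fragments in siControl cells, 29 with TGF-β and 21 with set 1, and was not called with set 2, where about 17 fragments would have reached the limit. The intervals in FPM, 1.01 to 2.34, 1.19 to 2.56 and 0.752 to 1.86, overlapped.

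The other *Tgfbr1* regions lay upstream, 3 of them in the neighbouring collagen gene *Col15a1*. The strongest, at -42.2 kb (chr4:47310806-47311150), overlaps an exon of *Col15a1* and held 42, 51, 31 and 36 fragments in the order siControl, TGF-β, set 1 and set 2. Beside it, the region at -43.2 kb had 39 fragments with TGF-β and 21 with set 1, and no peak in siControl cells or with set 2. A region at the *Col15a1* promoter was called with TGF-β (21) and set 1 (19) alone, and 1 at -25.3 kb in both siControl libraries with 16 fragments each. No region lay inside the *Tgfbr1* gene beyond its promoter.

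*Acvr1*, a type I receptor of BMPs and activins, had 8 regions and no promoter peak. Its intronic regions at 20.6 kb and 61.2 kb were called in all 4 libraries. The first held 19, 29, 27 and 21 fragments and the second 15, 17, 28 and 18. At the second the set 1 library was the highest, the single one of the 14 regions called everywhere in which set 1 exceeded the TGF-β library by more than 1.5 times after scaling to depth (ratio 1.55, interval 0.820 to 3.02).

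An upstream *Acvr1* region at -13.3 kb, inside *Upp2*, held 17, 26 and 20 fragments and was not called with set 2. Regions at 90.0 kb, 82.7 kb and -22.6 kb were called in siControl cells alone with 17, 14 and 12 fragments. The region at 53.8 kb was called with TGF-β alone (19 fragments), and the region at 18.0 kb with TGF-β (18) and set 1 (21). *Acvr1* was thus the one gene with more peaks in siControl cells (6) than with TGF-β (5). *Bmpr1a*, the other BMP type I receptor gene, had 2 regions, an exonic one at 55.5 kb (15 fragments) and one at -46.2 kb inside *Ldb3* (17 fragments), both with TGF-β alone.

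Among the type II receptor genes, *Tgfbr2*, which encodes the receptor that binds TGF-β first, had an own promoter peak in 2 libraries. The peak at the TSS (chr9:116175199-116175403) held 19 fragments with TGF-β and 19 with set 1, and was called in neither of the others, where about 12 fragments in siControl cells and 14 with set 2 would have reached the limit. A further promoter peak at -0.626 kb was called with TGF-β alone, with 19 fragments.

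The intronic *Tgfbr2* region at 22.3 kb held 17, 28, 30 and 18 fragments in the order siControl, TGF-β, set 1 and set 2. The TGF-β and set 1 libraries were alike and above the other two, although all 4 intervals overlapped in FPM, from 0.516 to 1.38 with set 2 to 1.17 to 2.48 with set 1. The ratio of set 2 to siControl cells with TGF-β was 0.506 (0.264 to 0.948). Both regions in the neighbouring gene *Gm31410* were called in every library, with 20, 33, 29 and 21 fragments at its promoter (-43.6 kb) and 24, 21, 25 and 23 at -48.2 kb. *Bmpr2*, the BMP type II receptor gene, had an intronic region at 2.03 kb with set 1 alone (20 fragments) and 1 at 62.2 kb with TGF-β alone (17).

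The coreceptor gene *Tgfbr3* had 4 intronic regions and none with set 2. The regions at 2.24 kb and 178 kb were called in both siControl libraries and with neither siRNA set, with 16 fragments each in siControl cells and with 22 and 19 with TGF-β. The region at 122 kb was called with TGF-β alone (22 fragments), and the region at 132 kb with set 1 alone (16 fragments). Each of these counts lay below the median of its whole list, which was 21 to 23 fragments.

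The comparison of siControl cells with and without TGF-β asked which sites were called in a single library of the pair. Of the 38 peaks with TGF-β, 19 (50%) overlapped no peak of siControl cells, against 37.0% of all peaks of that library. They included 4 of 6 own promoter peaks (2 each at *Ltbp1* and *Tgfbr2*, of which 1 at *Ltbp1* was a part of the split internal promoter that was called in every library), 9 of 19 intronic and 2 of 6 upstream peaks, and lay in all 10 genes, 6 of them in *Ltbp1*. Of the 26 peaks in siControl cells, 7 (26.9%) were not called with TGF-β, against 18.4% of all, and 3 of these lay in *Acvr1* and 2 in *Ltbp1*. With the 14925 strongest peaks of each list, 12 of 21 were called with TGF-β alone and 6 of 15 in siControl cells alone, where the shares over all peaks were 34.4% and 34.3%. Median fold enrichment in the 10 loci was 7.23 in siControl cells and 7.96 with TGF-β, against 8.19 and 8.44 over the whole lists. Whether weaker peaks account for the higher shares in the 10 loci was not tested.

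The comparison of the siRNA sets with siControl cells, all given TGF-β, asked which sites differed in their calls when *Etv4* and *Etv5* were targeted. Whether a site depended on these factors was not tested. The library of siControl cells given TGF-β enters the comparison with either set. With set 1, 14 of the 38 peaks (36.8%) were not called, against 33.6% of all peaks, and with set 2, 22 (57.9%) were not called, against 53.6%. Among genes, none of the 3 peaks of *Tgfbr3* and neither peak of *Bmpr1a* was called with either set, while 3 of 12 *Ltbp1* peaks were not called with set 1 and 5 with set 2. In *Tgfbr1*, 1 of 5 peaks was not called with set 1 and 4 with set 2. Conversely, 3 of 27 peaks with set 1 (11.1%) and 2 of 17 with set 2 (11.8%) had no peak in siControl cells with TGF-β, against 15.2% and 10.3% of all.

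With equally long lists the difference between the sets was small. Of the 21 peaks that siControl cells with TGF-β then had in the 10 loci, 7 were not called with set 1 and 8 with set 2, where 31.4% and 33.4% of all peaks were not called. In the other direction, 4 of 18 peaks with set 1 and 5 of 17 with set 2 had no peak in siControl cells with TGF-β, against 31.4% and 33.0% of all. Cutting the lists to the same length also takes away any general difference in signal. Whether the larger count for set 2 in the full lists came from its shorter list was not tested.

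The patterns of calls over the 4 libraries differed between genes. Of the 48 regions, 14 (29.2%) were called in all 4 libraries, against 29.6% of all regions, and they lay in *Ltbp1* (6), *Tgfbr2* (3), *Tgfb1* (2), *Acvr1* (2) and *Tgfbr1* (1). With TGF-β alone 10 were called (20.8%, against 16.1%), and in siControl cells alone 7 (14.6%, against 7.72%). A further 7 were called with TGF-β and set 1 but not in siControl cells or with set 2 (14.6%, against 8.19%), among them the *Tgfbr2* promoter and the regions at 268 kb of *Ltbp1* and -43.2 kb of *Tgfbr1*. No region was called in all 3 TGF-β libraries and not in siControl cells, a pattern of 3.78% of all regions. Regions of both siControl libraries that were called with neither siRNA set numbered 3 (6.25%, against 7.05%), of which 2 lay in *Tgfbr3* and 1 upstream of *Tgfbr1*.

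At the 14 regions present in every library, signal strength could be set side by side. Fold enrichment was higher with TGF-β than in siControl cells in 13 of 14, with a median difference of 0.34 on the log2 scale, against 0.14 over all 10594 such regions, of which 68.3% were higher. The exception was the *Tgfbr2* region at -48.2 kb (-0.48). With set 1 it was lower than in siControl cells with TGF-β in 11 of 14 (median -0.16, against -0.18 over all), and with set 2 in 13 of 14 (median -0.36, against -0.40). Over all regions called everywhere, 26.4% were higher with set 1 and 9.10% with set 2.

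**Figure D3:**
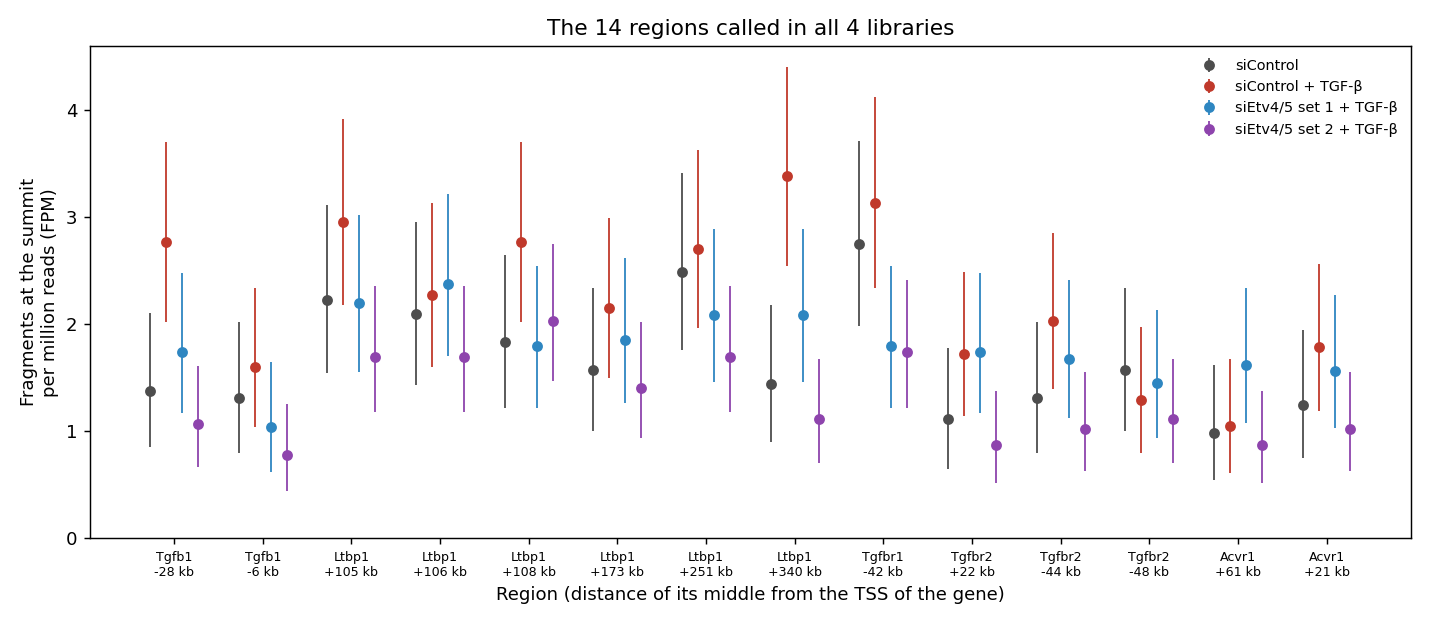
Fragments at the summit per 1000000 reads of estimated depth (FPM, vertical axis) at the 14 regions called in all 4 libraries; points are the single library of each group and bars the 95% Poisson interval for counting error. The *Ltbp1* region at 340 kb reached 3.38 with TGF-β and lay between 1.11 and 2.08 in the other libraries.

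In FPM, the *Ltbp1* region at 340 kb was 2.35 times higher with TGF-β than in siControl cells (interval 1.41 to 4.04). The *Tgfb1* region at -27.9 kb was 2.01 times higher (1.17 to 3.56). These were the 2 of 19 regions called in both libraries that were at least 2 times higher, against 0.901% of all regions called in both, and the intervals of both lay above 1, against 2.12% of all. No region in the 10 loci was at least 2 times lower with TGF-β (0.0442% of all) or had an interval below 1 (0.149% of all).

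With set 1, the *Ltbp1* region at 340 kb was at 0.616 of siControl cells with TGF-β (interval 0.393 to 0.955). The *Tgfbr1* regions at -43.2 kb and -42.2 kb were at 0.507 (0.283 to 0.883) and 0.572 (0.354 to 0.912). These 3 of the 23 regions called in both libraries had an interval below 1, against 4.05% of all. The *Tgfb1* region at -27.9 kb was at 0.628 with an interval that included 1 (0.382 to 1.02). None of the 23 was at least 2 times lower (1.14% of all) or higher (0.0263% of all) or had an interval above 1 (0.0578% of all).

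With set 2, 8 of 15 regions called in both libraries had an interval below 1, against 33.2% of all, and 3 were at least 2 times lower, against 17.5%. None of the 15 was at least 2 times higher or had an interval above 1, as in 0.00751% of all by either measure. The *Ltbp1* region at 340 kb was the lowest at 0.329 (0.193 to 0.545), followed by the *Tgfb1* regions at -27.9 kb with 0.385 (0.220 to 0.655) and at -5.93 kb with 0.485 (0.243 to 0.938). The median over the 14 regions was -0.81 on the log2 scale of FPM, beside -0.71 over all regions called everywhere. The siControl library with TGF-β enters all 3 of these comparisons.

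**Figure D4:**
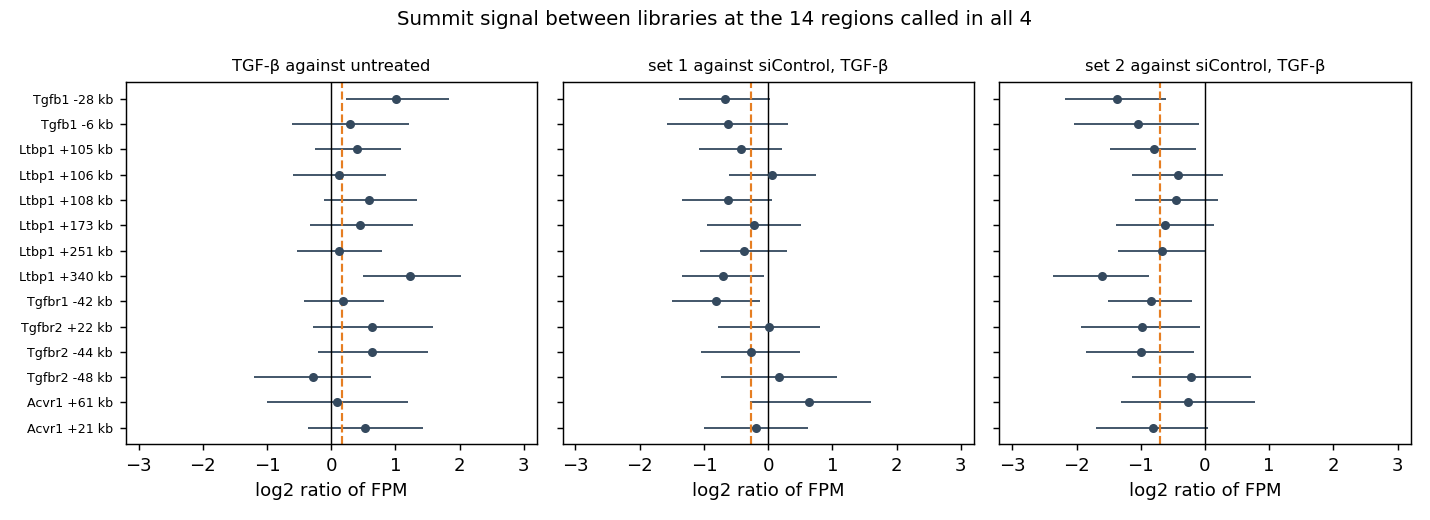
Log2 ratio of FPM (horizontal axis) at the 14 regions called in all 4 libraries, for TGF-β against siControl cells and for each siRNA set against siControl cells with TGF-β; bars are 95% Clopper-Pearson intervals for counting error and the dashed line is the median over all 10594 regions called everywhere. With TGF-β 13 of 14 points were above 0, and with set 2 all 14 were below it, where 2.78% of all such regions were above it.

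Each of the 48 regions was searched for motif letters over 500 bp centred on its middle. AP-1 letters were in 37.5%, against 43.6% of all 35789 regions counted, ETS letters in 16.7% (15.9%), PEA3-type letters in 62.5% (52.9%), RUNX letters in 31.2% (35.4%) and Smad letters in 37.5% (38.0%). Among intronic, exonic and upstream regions, those called in all 4 libraries held AP-1 letters in 9 of 10, against 67.9% of 5556 such regions, and those called in 1 to 3 libraries in 7 of 23, against 51.7% of 18485. Of the 7 called with TGF-β alone, 2 held AP-1 letters (57.8% of all) and 6 PEA3-type letters (52.8% of all). Around the summit of the strongest library, 10 of the 16 regions with AP-1 letters within 250 bp had them within 50 bp, among them the *Ltbp1* region at 340 kb (2 bp), the *Tgfb3* region (7 bp) and the *Tgfbr3* regions at 122 kb (21 bp) and 178 kb (27 bp). Over all such regions this share was 72.9%.

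Other genes of the pathway were described by their promoters. Of 30 further ligand, receptor and activation genes, 5 had a promoter peak in siControl cells, 7 upon TGF-β, 5 under set 1 and 3 under set 2, and 10 in at least 1 library. These were the ligand genes *Bmp2*, *Bmp7* and *Gdf15*, the receptor genes *Acvr2b* and *Rgma*, and 5 of 10 genes listed for the latent complex and its activation (*Ltbp2*, *Ltbp4*, *Thbs1*, *Itgav* and *Itgb6*), which encode matrix proteins and integrin subunits. *Gdf15* alone was called in all 4 libraries, against 23.6% of all protein-coding genes. In the library order above, promoters were called in 36.1%, 38.1%, 34.1% and 27.3% of all protein-coding genes. Promoters were called in at least 1 library for 3 of 9 ligand genes and 2 of 11 receptor and coreceptor genes. For the latent complex and its activation this was 5 of 10, and for all protein-coding genes 42.6%.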

How the data were processed

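Per the study's methods, the authors sequenced FAIRE DNA on an Ion Proton, trimmed reads to 36 bp, mapped them to mm10 with bowtie2 and ran MACS2 with 0.0001 as the q-value limit. The study describes biological replicates, which may have been combined, and 1 list per group was deposited. For each peak, the deposited lists hold a whole-number score, a fold enrichment (the ratio of summit signal to local background), the −log10 p-value and the −log10 q-value made by the authors, and the summit position. Fragments at the summit and the local background were solved from fold enrichment (pseudocount 1) and Poisson p-value, came out whole within 0.05 in 100% of peaks, and the solver was checked on simulated data. Depth was the background floor times an effective genome of 1.87 Gb over the fragment length (125 to 134 bp), and fragments were scaled to 1000000 reads of this depth (FPM).

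Gene models were GENCODE vM21 basic. A region was classed by its middle: own promoter (within 2 kb of a basic TSS), promoter of a neighbour, exonic, intronic or upstream. The sequences were read from the GRCm38 genome. In 9 of 9 promoters compared they matched the RefSeq promoter table. Python 3.11.15, pandas 2.3.3 and scipy 1.17.1 were used. The genes, lists and comparisons were chosen with earlier results of these data known. All members were described. The distal sequences followed a fixed rule, and the promoter sequences were added after the values were seen. Alternatives changed the list length, q-value limit, upstream distance, promoter width, TSS set, overlap, scale and motif window.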

Additional observations from a re-analysis of the deposited data

How the results depend on the processing

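No paired analysis was possible because each group has 1 list and the samples carry no replicate numbers, and for the same reason no replicate could be left out. Of 58 values recomputed under another setting, 39 stayed and 19 moved. To stay meant within 1.5 times of the reported count or, for motif shares, within its Wilson 95% interval. The 39 include 14 counts at the 100 times stricter q-value limit. Every peak in the 10 loci already met that limit, so these counts could not move. The 3 log2 medians on the FPM scale were labelled moved or reversed alone, so they could not stay. None of the log2 medians changed sign. With equally long lists 8 values moved and 6 stayed. The other lists were cut to the length of the set 2 list, so their counts of peaks could not rise. The set 2 list itself was not cut, so its own counts of peaks and promoter peaks could not move. With the 14925 strongest peaks of each list, the 10 loci held 15 peaks in siControl cells and 21 with TGF-β, with 3 promoter peaks each upon TGF-β and under set 1. Then 12 peaks were called with TGF-β and not in siControl cells, 7 and 8 peaks of the TGF-β-treated siControl library were absent under set 1 and set 2, and 5 peaks with set 2 were not called in siControl cells with TGF-β. With 20 kb upstream, siControl cells had 17 peaks. With the TSS of the gene record alone, own promoter peaks numbered 1 in siControl cells, 3 with set 1 and 1 with set 2. On the FPM scale, the median log2 differences were 0.43, -0.32 and -0.81 for TGF-β and the 2 siRNA sets in turn. In a 200 bp window the shares were 6.25% for ETS (9.96% of all regions), 37.5% for PEA3-type (28.7%), 16.7% for RUNX (20.4%), 18.75% for Smad (17.9%) and 37.5% for AP-1 letters (38.3%). Against all regions, ETS letters thus went from more to less frequent and Smad letters from less to more, and the difference for AP-1 letters was smaller. Depth limits the precision: with a median of 20 to 25 fragments per summit in the 10 loci, most differences below 2 times lay within counting error, and a site without a peak carries no value.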
